A study of Mus musculus with 6 samples.

Results

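The gut peptide hormone genes Cck, Gip, Nts, Sct and Pyy were followed through single epithelial cells of the mouse jejunum. They were taken by name: Cck, Gip, Nts and Sct were measured in the anterior and the posterior jejunum, and Pyy was in the posterior table only, so these are 5 of the 6996 genes of either table. Cells came from 3 mice, 120 days old and of mixed CD-1:C57BL/6 background, and the labels name no genotype and no treatment. Each mouse gave an anterior jejunum sample (piece 3 of 12 of the small intestine) and a posterior jejunum sample (piece 7 of 12), so that 3 anterior and 3 posterior samples were compared. Equal parts of villus and crypt cells were pooled, and living EpCAM-positive cells were sorted singly into plates and sequenced by MARS-seq, a 3′-end method in which every captured mRNA carries a random tag (unique molecular identifier, UMI) so that molecules rather than reads are counted. The series is titled for ID2, a protein that blocks DNA binding by bHLH (basic helix-loop-helix) factors, and for enteroendocrine differentiation.

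The hormones studied here are made as precursors in enteroendocrine cells, scattered secretory cells of the gut epithelium that sense the lumen and release peptides into the blood and onto nearby nerves. Cholecystokinin (Cck) drives gall bladder contraction and pancreatic enzyme secretion, gastric inhibitory polypeptide (Gip) raises insulin secretion after a meal, and secretin (Sct) drives bicarbonate secretion by the pancreas and bile ducts. Neurotensin (Nts) acts on gut motility and fat absorption, and peptide YY (Pyy) slows gut transit and lowers food intake. Gip and Cck are known mainly from the upper small intestine and Nts and Pyy from its lower part, whereas secretin is known from enteroendocrine cells of several kinds.

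The tables held 1028 anterior and 1015 posterior cells. Total UMIs were 2887877, 1767832 and 2019506 in the anterior samples of mice 1, 2 and 3, and 3157105, 1640578 and 1775760 in the posterior ones. Of 186 well barcodes, 105 occurred in all 6 samples, since the same set of well tags was used on every plate. In clustering that left out all listed hormones and the listed transcription factors and ID proteins, 1 of 11 clusters was enteroendocrine-like, with 115 cells. Of 14 listed enteroendocrine markers 7 were measured, and all 7 were raised in it. Only Chga and Chgb, the chromogranins of hormone granules, were in both tables, and the other 5 were in the anterior table only. The enteroendocrine-like cells were 58, 7 and 6 in the anterior samples of mice 1, 2 and 3, and 33, 7 and 4 in the posterior samples, so most values below rest on mouse 1. Their median depth was 3714, 6255 and 7545.5 UMIs in the anterior samples, against 1300, 3887 and 4538.5 UMIs in the posterior samples. Positive shares and UMI counts of the 2 regions were thus read at unlike depth. Levels are UMIs of the gene per 10000 UMIs of the cell (CP10K), counted over the genes of both tables. For Pyy, and for shares of the UMIs of a cell, all genes of the cell's table were counted. A cell was called positive with at least 1 UMI.

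Each of these genes is protein-coding in the GENCODE annotation of GRCm38. Cck lies on chromosome 9 (121489824 to 121495694, minus strand), Gip on chromosome 11 (96024545 to 96030831, plus strand), Nts on chromosome 10 (102481756 to 102490486, minus strand), Sct on chromosome 7 (141278330 to 141279133, minus strand) and Pyy on chromosome 11 (102106676 to 102107832, minus strand). A promoter was matched by symbol for 5 of the 5 genes. Shown here are those of Cck and Nts, whose high cells were mostly Sct-high as well, that of Sct, and that of Gip, whose high cells mostly were not Sct-high. They are RefSeq windows of GRCm38.p6, 250 bases before to 50 bases after a start, read on the strand of the gene: chr7:141279084-141279383 (minus) for Sct, chr9:121495645-121495944 (minus) for Cck, chr10:102490369-102490668 (minus) for Nts and chr11:96024295-96024594 (plus) for Gip. Capitals mark the E-box motif CANNTG, the letters bound by basic helix-loop-helix factors, which are the partners of ID proteins. The motif reads the same on both strands, and no 2 matches overlapped.
Sct: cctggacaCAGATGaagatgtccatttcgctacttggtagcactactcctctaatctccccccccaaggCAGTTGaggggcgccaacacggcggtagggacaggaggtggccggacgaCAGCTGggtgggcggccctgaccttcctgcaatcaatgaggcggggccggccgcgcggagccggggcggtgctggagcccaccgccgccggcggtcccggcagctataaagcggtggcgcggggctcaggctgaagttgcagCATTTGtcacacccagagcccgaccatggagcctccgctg
Cck: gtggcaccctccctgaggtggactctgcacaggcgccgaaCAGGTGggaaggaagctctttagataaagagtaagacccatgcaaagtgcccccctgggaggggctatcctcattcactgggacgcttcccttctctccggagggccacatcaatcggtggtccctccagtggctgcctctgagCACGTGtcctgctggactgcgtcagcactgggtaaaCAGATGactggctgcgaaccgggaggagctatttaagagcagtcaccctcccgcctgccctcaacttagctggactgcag
Nts: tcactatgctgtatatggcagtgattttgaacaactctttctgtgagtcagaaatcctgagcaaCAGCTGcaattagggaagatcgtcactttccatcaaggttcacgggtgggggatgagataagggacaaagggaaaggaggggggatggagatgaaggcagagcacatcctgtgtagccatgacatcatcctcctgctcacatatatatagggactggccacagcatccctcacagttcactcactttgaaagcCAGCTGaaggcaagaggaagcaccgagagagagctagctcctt
Gip: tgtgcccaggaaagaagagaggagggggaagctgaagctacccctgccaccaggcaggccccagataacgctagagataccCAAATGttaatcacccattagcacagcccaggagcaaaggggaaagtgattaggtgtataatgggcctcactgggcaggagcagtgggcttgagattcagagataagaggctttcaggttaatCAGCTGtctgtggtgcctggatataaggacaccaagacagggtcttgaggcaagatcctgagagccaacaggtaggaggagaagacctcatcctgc
The Sct window held 4 matches, the Cck window 3, the Nts and Gip windows 2 each, and 1 match lay in each of the 2 Pyy windows that RefSeq gives. Of 32851 promoters of the same length, 72.3% held at least 1 match and 6.49% held 4 or more, with a median of 1. These matches describe letters in the windows, and binding was not measured.

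Most UMIs of each hormone sat in very few cells. A cell was called high for a hormone when the hormone had at least 20 UMIs and at least 1% of the UMIs of the cell, limits set after the values had been seen. By this rule 88 cells were high for at least 1 hormone, 56 anterior and 32 posterior. Sct was high in 65 cells, Gip in 26, Cck in 19, Nts in 11 and Pyy in 4 posterior cells. They carried 86.5% of all Sct UMIs, 89.2% of Gip, 91.6% of Cck, 87.7% of Nts and 95.3% of Pyy.

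Among anterior cells, 2 cells were enough to pass 50% of the Nts UMIs, 4 of the Cck, 6 of the Gip and 9 of the Sct UMIs. Among posterior cells it took 1 cell for Nts and 2 cells each for Cck, Gip, Sct and Pyy. To pass 90% in the posterior took 2 cells for Pyy, 4 each for Cck and Nts, 9 for Gip and 30 for Sct. The largest single value of Nts was 3143 UMIs, or 45.2% of its cell, in posterior mouse 3. Just outside the limits, the cell with the most Cck UMIs that was not high had 46, and for Gip it had 50, for Nts 112, for Sct 76 and for Pyy 15. Just inside them the lowest cells had 152 Cck, 30 Gip, 26 Nts, 20 Sct and 75 Pyy UMIs.

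**Figure D1:**
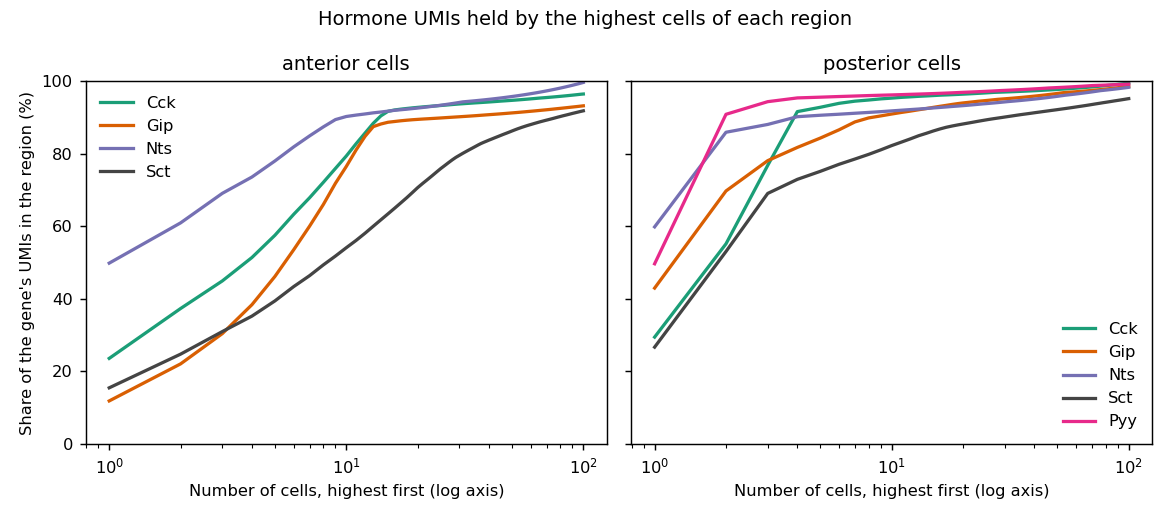
Cumulative share of the UMIs of each hormone (vertical axis, percent of its UMIs in the region, anterior cells left and posterior cells right) held by the cells with most UMIs of it (horizontal axis, number of cells, log axis). In posterior cells 90% takes 2 cells for Pyy and 30 for Sct, and in anterior cells 10 for Nts and 78 for Sct.

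Hormone-high cells were nearly all enteroendocrine-like: 80 of 88 fell in that cluster, which was drawn without the hormones. Of the other 8, 3 were in the crypt progenitor-like cluster, 2 each in goblet-like and Paneth-like clusters and 1 in an enterocyte-like cluster. The remaining 35 enteroendocrine-like cells, 20 anterior and 15 posterior, were high for none of the genes measured in them. Their median total was 1943 UMIs, against 3654 UMIs in cells high for 1 hormone. Sorted wells also carry a pos or neg label whose marker the sources used here do not name, and hormone-high cells came from both, with 45 pos and 43 neg wells.

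Secretin was the most widespread hormone of the enteroendocrine-like cells. At least 1 Sct UMI was found in 91.4%, 100% and 100% of these cells in the anterior samples of mice 1, 2 and 3, against 87.9%, 100% and 100% in the posterior samples. Wilson 95% intervals, which cover counting error only, ran from 81.4% to 96.3% in anterior mouse 1 and from 72.7% to 95.2% in posterior mouse 1. Enteroendocrine-like cells high for Sct numbered 28, 6 and 5 in the anterior samples, against 14, 7 and 4 in the posterior samples. Sct was thus high in both regions of every mouse, which held for no other hormone measured in both tables. In the high cells it reached a median of 142 UMIs and at most 4402.

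Gip was high in fewer cells and reached the largest shares of a cell. Gip-high cells numbered 16, 2 and 0 over all cells of the anterior samples of mice 1, 2 and 3, against 8, 0 and 0 in the posterior samples. In the 18 anterior Gip-high cells Gip took a median of 40.8% of the UMIs of the cell and at most 56.5%, against a median of 8.74% and at most 24.5% in the 8 posterior ones, all of which came from mouse 1. On the 2 anterior plates of mouse 1 there were 8 and 8 such cells, and on its 3 posterior plates 2, 4 and 2. One Gip-high cell of anterior mouse 2, in the crypt progenitor-like cluster, also carried 9372 UMIs of Sst, which encodes somatostatin, beside 880 Gip UMIs.

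Cck-high cells numbered 13, 2 and 0 in the anterior samples, against 2, 1 and 1 in the posterior samples. They held a median of 519 Cck UMIs in the 15 anterior cells and 674 in the 4 posterior cells. As a share of the UMIs of the cell this was a median of 10.2% in the anterior and 3.64% in the posterior cells, of which 3 had 17102, 20712 and 27933 UMIs in all. Nts-high cells numbered 7, 1 and 0 in the anterior samples, against 0, 2 and 1 in the posterior samples, with medians of 57.5 and 1369 Nts UMIs in the 8 anterior and the 3 posterior cells.

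Pyy could be read in the posterior samples only. Its 4 high cells lay in all 3 mice, 2 in mouse 1 and 1 each in mice 2 and 3, and carried 2992, 75, 3609 and 253 Pyy UMIs. At least 1 Pyy UMI was found in 13 of 33, 2 of 7 and 0 of 4 enteroendocrine-like cells of posterior mice 1, 2 and 3, and in 10.5%, 32.2% and 3.64% of their other cells. By a rough limit of 3 counts for a count of 0, which is loose for so few cells, 0 of 4 cells allows a share of up to 75.0%. The Pyy-high cell of mouse 3 was in the crypt progenitor-like cluster and had 20712 UMIs and 37 chromogranin UMIs.

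The hormones divided over the high cells in an uneven way. Of 88 cells, 58 were high for 1 hormone, 24 for 2 and 6 for 3 or more. The largest sets were high for Sct alone (18 anterior and 18 posterior cells), for Gip alone (14 anterior and 5 posterior) and for Cck with Sct (11 anterior and 0 posterior).

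Cck-high cells were seldom without Sct, whereas most Sct-high cells were not Cck-high. Of 19 Cck-high cells 17 were also Sct-high, which is 89.5% of the Cck-high and 26.2% of the Sct-high cells, all from mice 1 and 2. Sct was high in 65 of all 88 hormone-high cells. Just 1 cell was high for Cck alone, with 469 Cck UMIs beside 2 of Sct. The 4 posterior Cck-high cells combined with other hormones in 4 different ways: with Gip and Sct, with Sct and Pyy, with Nts, Sct and Pyy, and with Pyy.

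Nts was high beside Sct in 9 of 11 cells, and beside Cck in 3 of 11. Of all 88 hormone-high cells, 65 were Sct-high and 19 Cck-high, so the Nts counts lay near these shares. Gip stood more apart: 7 of 26 Gip-high cells were Sct-high, 2 were Cck-high, and 0 were Nts-high or, among 8 posterior ones, Pyy-high. The limit of 1% is harder to reach where Gip takes much of the cell. One cell of anterior mouse 1 had 47 Sct UMIs, or 0.65% of its 7236, beside 3903 of Gip. The part of this in the counts was not tested. Of the 4 Pyy-high cells, 3 were Cck-high, 3 Sct-high and 1 Nts-high.

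**Figure D2:**
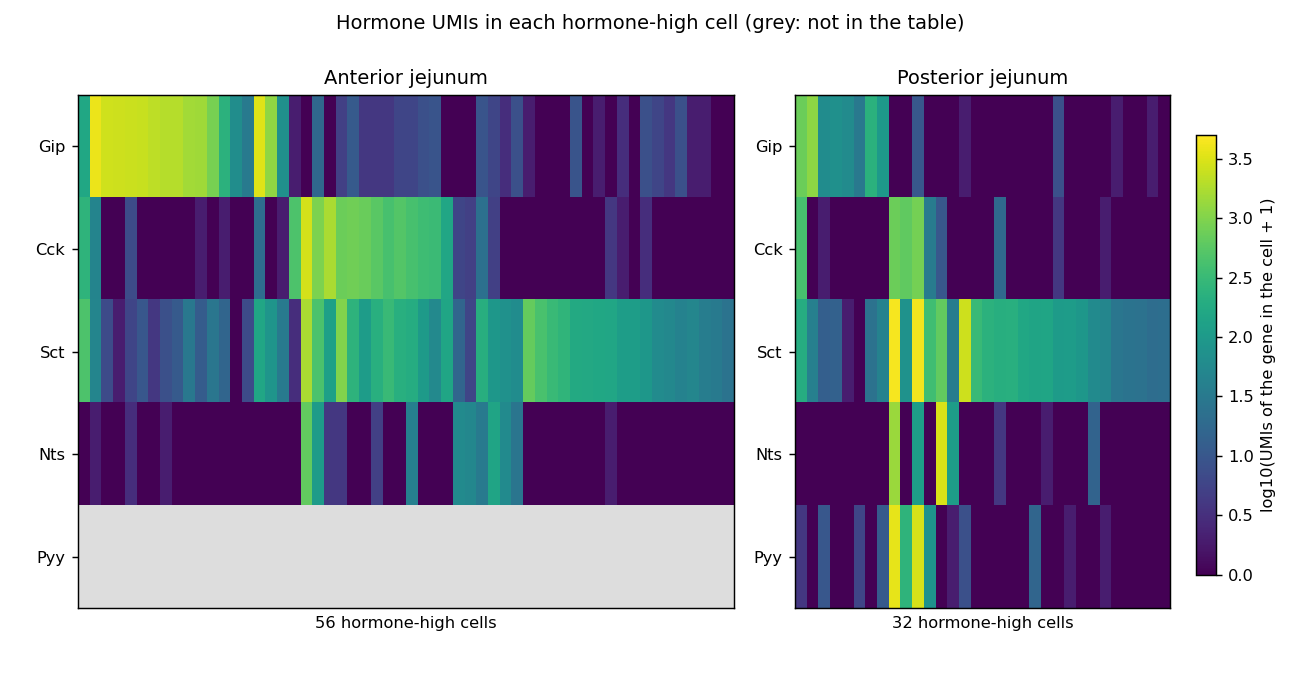
UMIs of each hormone (rows) in each hormone-high cell (columns), as log10(UMIs + 1), for 56 anterior cells on the left and 32 posterior cells on the right, grouped by combination, with grey where Pyy was not in the table. Gip-high cells form a block with little Cck or Nts, Cck-high cells are mostly bright for Sct as well, and the widest block is high for Sct alone.

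Some cells gave a large part of their RNA to several hormones at once. A cell of posterior mouse 2 held 4402 Sct, 3609 Pyy, 1369 Nts and 732 Cck UMIs, together 59.1% of its 17102 UMIs. A cell of posterior mouse 1 held 4340 Sct, 2992 Pyy, 840 Cck and 112 Nts UMIs, which was 29.7% of 27933. In anterior mouse 2 a cell held 2886 Cck, 1680 Sct and 643 Nts UMIs, or 32.3% of 16147. The 6 cells high for 3 or more hormones had a median total of 11805.5 UMIs, against 4052 for 2 hormones and 3654 for 1. The part of depth in these combinations was not tested.

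Co-expression was also tested over samples, as the number of double-positive enteroendocrine-like cells minus the number that the shares of that sample give. None of the 6 pairs of Cck, Gip, Nts and Sct passed a two-sided exact sign-flip test adjusted over the pairs. None could pass, since the smallest p was 0.0625 for pairs with 5 samples and 0.25 for pairs with 3. For pairs with Sct, mice 2 and 3 could add nothing, as all their enteroendocrine-like cells were Sct-positive. The largest excess was that of Cck with Nts, with 17 cells observed and 11.7 expected, above in 5 of 5 samples, for an exact p of 0.0625, which is the smallest that 5 samples allow (adjusted p = 0.375). With the number expected within each amplification pool, the set of wells amplified together, it shrank to 17 against 16.0. The count was repeated with high in place of positive, over all enteroendocrine-like cells, including the 35 that were high for none. Cck and Sct then met in 17 cells against 9.84 expected, above in 3 of 4 samples (exact p = 0.25, adjusted p = 0.75). Gip and Sct met in 7 against 10.6 expected, below in 1 of 3 samples and above in the other 2 (exact p = 1, adjusted p = 1).

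Positivity with at least 1 UMI was not restricted to enteroendocrine-like cells. At least 1 UMI was found in 40.9% of enteroendocrine-like and 22.5% of other cells for Cck, in 63.5% and 34.8% for Gip, in 22.6% and 13.5% for Nts, in 92.2% and 43.8% for Sct, and, among posterior cells, in 15 of 44 and 146 of 971 for Pyy. Median depth was 3706 UMIs in enteroendocrine-like and 3445.5 in other cells. Thinned to 2000 UMIs per cell, which left out 34 enteroendocrine-like and 679 other cells, the shares were 44.4% and 12.2% for Cck, 60.5% and 26.2% for Gip, 17.3% and 7.37% for Nts, and 93.8% and 28.8% for Sct. Absorptive enterocytes should lack these hormones, yet of enterocyte-like cells 18.9% were positive for Cck, 23.1% for Gip, 19.7% for Nts, 39.4% for Sct and 19.6% for Pyy, at a median depth of 7034 UMIs. Thinned to 2000 UMIs, these shares were 8.65%, 17.5%, 10.3%, 19.1% and 7.44%. Shares at or below these levels were read as background.

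Levels separated the classes far more than shares did. The mean over enteroendocrine-like cells was 190.4 CP10K for Cck, 549 for Gip, 66.5 for Nts and 321 for Sct, against 1.58, 10.3, 1.74 and 3.99 CP10K in other cells. For Pyy it was 87.2 against 0.793 CP10K in posterior cells. These means pool the cells of all samples, most of them from mouse 1. By sample, the enteroendocrine-like mean ran from 0 to 600 CP10K for Cck, 0 to 870 for Gip, 0 to 1162 for Nts and 246 to 809 for Sct. For Cck, Gip and Nts the level thus did not separate the classes in every sample.

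Background followed the amplification pool. Where a pool held a Cck-high cell, 42.2% of the cells that were neither enteroendocrine-like nor hormone-high had a Cck UMI, against 1.19% where it did not. The same shares were 62.2% and 3.76% for Gip, 29.3% and 1.11% for Nts, and 42.0% and 1.69% for Pyy. All 18 pools held an Sct-high cell, and 43.6% of such cells had an Sct UMI. The UMIs in these cells came to a median of 4.17% of those in the high cells of the pool for Cck, 8.34% for Gip, 10.9% for Nts and 3.56% for Pyy. For Sct the median was 19.6% and the highest value 187.5%, and in 3 posterior pools of mouse 1 these cells held more Sct UMIs than the high cells did. Single pools overlapped: the lowest share in a pool with a high cell was 2.82% for Cck, 5.33% for Gip, 1.41% for Nts and 2.91% for Pyy. The highest share in a pool without one was 3.45%, 8.51%, 8.14% and 4.23%. Over all cells of such pools, the share of positive cells thus moved with the presence of a high cell, though not in every pool. The part of this in the regional shares below was not tested.

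**Figure D3:**
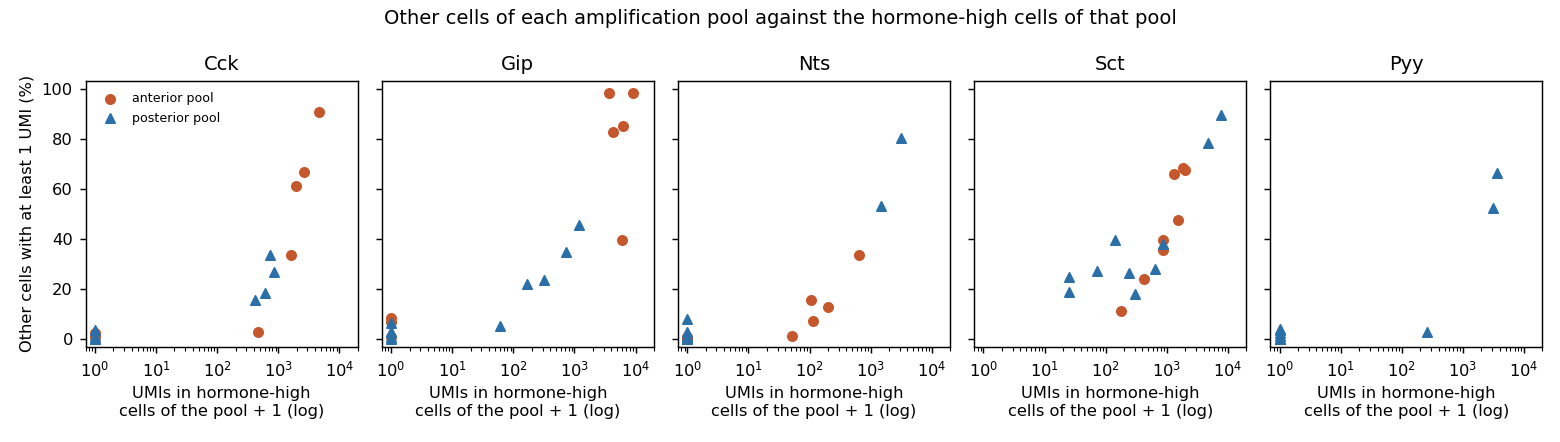
Share of cells with at least 1 UMI (vertical axis, percent) among cells that are neither enteroendocrine-like nor hormone-high, against the UMIs of that hormone in the hormone-high cells of the same amplification pool (horizontal axis, plus 1, log axis). Each point is 1 anterior (circle) or posterior (triangle) pool: for Cck, Gip, Nts and Pyy, pools with no high cell, at the left edge, lie below 10%. Some pools with a high cell lie below 10% too.

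Between regions, the shares of positive enteroendocrine-like cells did not pass a two-sided exact permutation test, for which 3 against 3 samples cannot go below p = 0.1. Cck-positive cells were 53.4%, 57.1% and 0% in the anterior samples of mice 1, 2 and 3, against 30.3%, 14.3% and 25.0% in the posterior samples. The mean share was 36.9% ± 31.98 in the anterior and 23.2% ± 8.16 in the posterior (SD, n = 3 each), for an exact p of 0.5 and an adjusted p of 0.933 over 4 hormones. The anterior sample of mouse 3 had no Cck UMI in its 6 cells, so the regions overlapped. The 14.3% of posterior mouse 2 lay below the enterocyte-like share read as background above, but included the Cck-high cell of that sample.

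Gip-positive cells were 89.7%, 57.1% and 0% in the anterior samples, against 51.5%, 0% and 0% in the posterior samples, with means of 48.9% ± 45.4 in the anterior and 17.2% ± 29.7 in the posterior (SD, n = 3 each; exact p = 0.4, adjusted p = 0.933). The anterior share was higher than the posterior in mice 1 and 2, while in mouse 3 both were 0. In mouse 1 these cells had a median of 3714 UMIs in the anterior and 1300 in the posterior. Thinned to 2000 UMIs per cell, the mean shares were 48.6% in the anterior and 14.3% in the posterior (exact permutation p = 0.4, adjusted p = 0.8). By the rough limit of 3 counts for a count of 0, which is loose for so few cells, counts of 0 of 6, 0 of 7 and 0 of 4 cells allow shares of up to 50.0%, 42.9% and 75.0%.

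Nts-positive cells were 25.9%, 42.9% and 0% in the anterior samples, against 12.1%, 28.6% and 50.0% in the posterior samples, with means of 22.9% ± 21.6 in the anterior and 30.2% ± 19.0 in the posterior (SD, n = 3 each; exact p = 0.7, adjusted p = 0.933). The mice differed in direction, with the anterior share higher in mice 1 and 2 and the posterior in mouse 3. The 12.1% of posterior mouse 1 lay below the enterocyte-like share read as background above. For Sct the means were 97.1% ± 4.98 in the anterior and 96.0% ± 7.00 in the posterior (SD, n = 3 each; exact p = 1, adjusted p = 1).

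Over all cells, Cck-positive cells averaged 30.8% ± 25.6 in the anterior and 12.0% ± 3.34 in the posterior (SD, n = 3 each). Gip-positive cells averaged 46.9% ± 41.0 in the anterior and 9.86% ± 13.1 in the posterior, and Nts-positive cells 9.74% ± 8.29 in the anterior and 23.6% ± 19.9 in the posterior. Sct-positive cells averaged 47.8% ± 14.8 in the anterior and 42.4% ± 9.63 in the posterior. None passed the exact permutation test (adjusted p from 0.533 to 0.7). The posterior means of Cck and Gip and the anterior mean of Nts lay below the enterocyte-like shares read as background above.

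As a share of all cells, Cck-high cells averaged 1.10% ± 1.15 in the anterior and 0.398% ± 0.0450 in the posterior (SD, n = 3 each), and Gip-high cells 1.28% ± 1.43 in the anterior and 0.522% ± 0.904 in the posterior. Nts-high cells averaged 0.579% ± 0.620 in the anterior and 0.387% ± 0.361 in the posterior, and Sct-high cells 3.29% ± 1.53 in the anterior and 2.46% ± 0.588 in the posterior. The adjusted p of the exact permutation test was 0.7 for each.

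The level of each hormone within enteroendocrine-like cells varied more between mice of a region than between regions, Sct apart. Gip averaged 870, 615 and 0 CP10K in the anterior samples of mice 1, 2 and 3, against 253, 0 and 0 CP10K in the posterior samples. The anterior value was above the posterior in mice 1 and 2, and mouse 3 had no Gip UMI in its enteroendocrine-like cells of either region. The anterior minus posterior difference was 4.46 on the scale of log2(mean CP10K + 0.2).

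For Nts the values were 24.4, 63.2 and 0 CP10K in the anterior samples, against 3.47, 146 and 1162 CP10K in the posterior samples. Nts was higher in the anterior of mouse 1 and in the posterior of mice 2 and 3, and the difference was −3.66 on the log2 scale. Its posterior value rests on single cells, since the cell with 3143 UMIs was 1 of the 4 enteroendocrine-like cells of posterior mouse 3.

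Cck averaged 273, 600 and 0 CP10K in the anterior samples, against 39.2, 77.7 and 3.25 CP10K in the posterior samples, again with mouse 3 going the other way from mice 1 and 2. The difference was 0.54 on the log2 scale. Sct averaged 246, 448 and 334 CP10K in the anterior samples, against 291, 809 and 562 CP10K in the posterior samples, and was lower in the anterior in each of 3 mice, by 0.24, 0.85 and 0.75 in the size of the log2 difference (−0.61 on average).

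Fitted with limma over 4547 genes, 4 genes passed an adjusted p of 0.05 between regions in enteroendocrine-like cells, which is 0.088% of those tested (3 higher and 1 lower in the anterior). Gip and Nts were among them (adjusted p = 4.4e-07 for each), beside Reg4 and Reg1, while Cck and Sct were not (adjusted p = 0.967 for each). For Gip and Nts this call does not rest on their own replicates. The prior of the fit had infinite degrees of freedom, so each gene took the spread of genes of like level: the fit used an SD of 0.865 for Gip and 0.709 for Nts, whereas the samples themselves had residual SDs of 6.41 and 4.33 on the log2 scale. With robust estimation of the prior, the adjusted p in limma was 0.971 for Gip and 0.969 for Nts, and an exact permutation test of the 6 values gave p = 0.4 for each. With the mouse as a block, Gip had an adjusted p of 0.039 and Nts of 0.568 in limma, and for Gip the fit again used a smaller SD (1.15) than its own residual SD (4.41). The regional difference of neither hormone was larger than the spread between replicates.

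Single samples also decided these limma calls. Gip did not pass without anterior mouse 1 (2.36), anterior mouse 2 (2.61), posterior mouse 1 (7.89) or posterior mouse 3 (2.74), and Nts did not pass without anterior mouse 3 (−1.11), posterior mouse 1 (−5.93) or posterior mouse 3 (−1.77), all as log2 differences. Weighting samples by their number of cells turned the Nts difference to 0.69. Without anterior mouse 3, the sample with no Cck UMI in its 6 cells, the Cck difference was 4.20 and passed in limma (adjusted p = 1.2e-09), whereas without anterior mouse 2 it was −1.57. Computed from summed UMIs, which gives deep cells more weight, the Sct difference was −1.24 and passed in limma (adjusted p = 0.0049). The number of genes called was between 1 and 10 when 1 sample was left out, with 10 called without posterior mouse 2.

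Reg4 and Reg1, secreted lectins of the gut epithelium, were the other genes called. Reg4 averaged 327, 682 and 613 CP10K in the anterior samples, against 81.1, 223 and 94.3 CP10K in the posterior samples, and Reg1 averaged 3.37, 7.00 and 7.43 CP10K in the anterior samples against 0.0164, 0 and 0 CP10K in the posterior samples. The regions did not overlap for either gene, unlike for the hormones. Reg1 was also the leading gene of an enterocyte-like cluster of 111 anterior and 13 posterior cells. The part of background from other cells of a pool in its low values here was not tested.

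**Figure D4:**
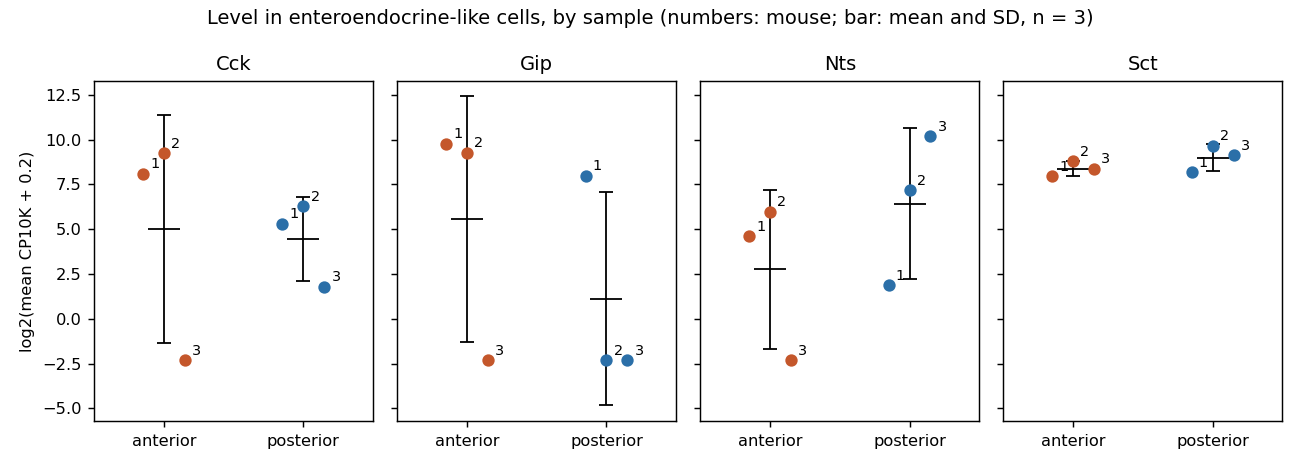
Level of Cck, Gip, Nts and Sct in enteroendocrine-like cells (vertical axis, log2 of mean CP10K + 0.2), with 1 point per sample numbered by mouse, anterior left of posterior, and the mean with its SD (n = 3). Points at the bottom are samples with no UMI in these cells, and the regions overlap for each hormone.

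Over all cells, 0 of 5195 genes passed (0% called), with 236 at an unadjusted p under 0.05 in limma. Gip averaged 116, 33.3 and 0.840 CP10K in the anterior samples, against 19.0, 0.782 and 0.0308 CP10K in the posterior samples, and was higher in the anterior in 3 of 3 mice (log2 difference 3.29 ± 1.84 SE, adjusted p = 0.935). With the mouse as a block, 17 genes passed in limma, 8 higher and 9 lower, and Gip was 1 of them (adjusted p = 0.016), with an SD of 0.526 used by the fit against a residual SD of 1.11 of its own. In mouse 3 the Gip UMIs lay outside enteroendocrine-like cells, in 13 of 256 anterior cells and 1 of 220 posterior cells.

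Cck averaged 30.6, 25.2 and 0.254 CP10K over all anterior cells, against 2.74, 2.53 and 1.86 CP10K over posterior cells. Nts averaged 4.64, 2.94 and 0.0024 CP10K over anterior cells, against 0.304, 7.41 and 24.7 CP10K over posterior cells. Sct averaged 29.2, 19.5 and 9.69 CP10K over anterior cells, against 22.5, 26.1 and 12.8 CP10K over posterior cells. None of these 3 passed in limma without or with the block (adjusted p of at least 0.476). Fewer cells of a type and less RNA per cell cannot be told apart in means over all cells. For mice 2 and 3 each sample was 1 plate, so plate and region cannot be told apart there.

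The kinds of hormone cell differed in chromogranin, the granule proteins that serve as general enteroendocrine markers. Cells high for Sct alone in the enteroendocrine-like cluster had a median of 325.5 Chga and Chgb UMIs in the anterior (18 cells, 3 mice) and 197 in the posterior (18 cells, 3 mice). Gip-high cells had medians of 12 in the anterior (15 cells) and 2 in the posterior (7 cells), with at most 116, and 13 of the 22 reached 5 chromogranin UMIs, against 34 of the 36 cells high for Sct alone. Cck-high cells lay between, with medians of 19 (15 anterior cells) and 107 (3 posterior cells).

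Median depth was 3870.5 UMIs in the Gip-high and 3665 in the Sct-alone cells. In mouse 1, which held 14 of the 15 anterior and all 7 posterior Gip-high cells, the chromogranin medians were 10.5 and 2 in anterior and posterior Gip-high cells, against 190 and 35 in anterior and posterior cells high for Sct alone. In CP10K, which takes depth into account, the medians were 23.1 and 9.52, against 645 and 98.4. As only 3 samples held Gip-high cells of this cluster, no test over samples was made, and the cluster itself was drawn with the chromogranins among its leading genes.

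**Figure D5:**
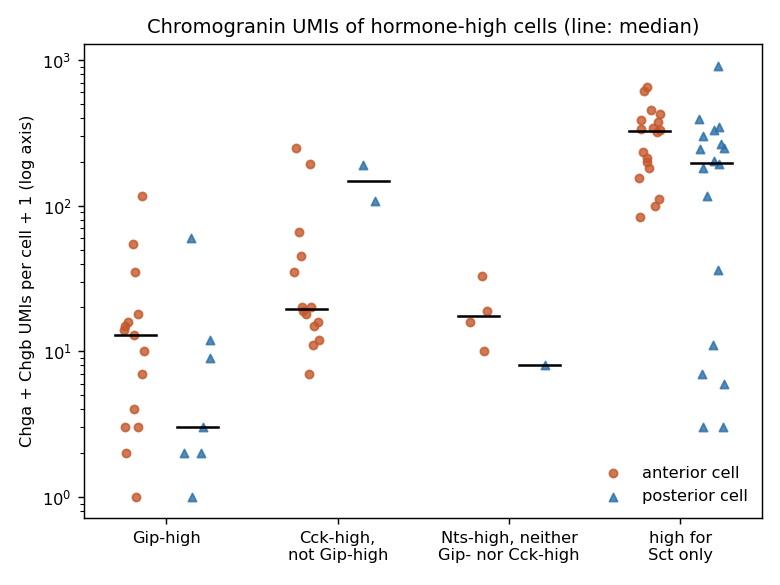
Chga and Chgb UMIs per cell (vertical axis, plus 1, log axis) in enteroendocrine-like cells by the hormone they were high for (each cell once, Gip-high before Cck-high before Nts-high), anterior cells as circles and posterior cells as triangles, with the median as a line. Gip-high cells lie at or below 116 UMIs, and the medians of cells high for Sct alone are 325.5 (anterior) and 197 (posterior).

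Tph1, the enzyme that starts serotonin synthesis and marks enterochromaffin cells, was in the anterior table only. It had a UMI in 18 of 18 anterior enteroendocrine-like cells high for Sct alone, with a median of 15 UMIs, and in 0 of 18 anterior Gip-high cells. Of anterior Cck-high cells, 8 of 15 had a Tph1 UMI, with a median of 1. Ghrl, which encodes ghrelin, had a UMI in 12 of 15 anterior Cck-high cells and was itself high in 3 of them, with 772, 131 and 42 UMIs, against 1 of 18 Gip-high cells with a UMI. Tac1, the precursor of substance P, was high in 2 and had a UMI in 15 of 39 Sct-high cells.

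Other genes of the hormone system were sparse in both tables. Of 17 other gut hormones on the list, 0 were in both tables and 4 (Sst, Ghrl, Tph1 and Tac1) in the anterior one. Of 31 genes of prohormone processing and secretory granules 5 were in both (Chga, Chgb, Rab3d, Syt7 and Vamp2), of 19 nutrient and bile acid sensing genes 5, of 11 receptors 1 (Sort1, a neurotensin-binding sorting receptor), and of 35 enteroendocrine transcription factors and ID and E proteins 9. Tested in limma between regions in enteroendocrine-like cells, 0 of 5 granule, 0 of 4 sensing, 0 of 1 receptor and 0 of 9 factor genes passed in either direction, where 0.088% of all genes tested passed, so these counts say nothing particular of the lists. Their median log2 differences were 0.07, 0.61, 0.75 and 0.63, against 0.27 over all genes tested.

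The genes that varied most like each hormone across enteroendocrine-like cells were found by Pearson correlation of log2(CP10K + 1), centred within samples, over 115 cells and 2416 genes. Cells of a sample share library, pool and depth, so these are descriptions. For Sct they were Crip1 (r = 0.51), Tm4sf4 (0.39), Id1 (0.37), Ndrg1 (0.37) and Id2 (0.36). Id1 and Id2, inhibitors of basic helix-loop-helix factors, thus stood among the 5 genes most like Sct.

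For Cck they were Dcakd (r = 0.51), Parm1 (0.47), Rnaset2a (0.47), Agr2 (0.44) and Rdh7 (0.43), and the gene most unlike it was Reg4 (−0.44), the lectin gene named above. For Gip they were Ank (r = 0.40), Phlda1 (0.40), Tspan3 (0.34), Cd24a (0.32) and Ap3d1 (0.31), and the most unlike was Chgb (−0.49). For Nts they were Aldh2 (r = 0.37), Arf3 (0.36), Arpc1b (0.35), Ttyh2 (0.34) and Maoa (0.33). Among the hormones themselves, centred within samples, r was 0.34 for Cck with Sct, 0.31 for Cck with Nts, 0.25 for Nts with Sct, and −0.09, −0.12 and −0.13 for Gip with Cck, Nts and Sct. Where Gip takes much of a cell, the CP10K of its other genes is lower, and the part of this in the Gip values was not tested.

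For Pyy the comparison had 44 posterior cells and 381 genes, and the genes most like it included Dbi (r = 0.33), Rps25, Rpl10a and Stub1 (0.32 each). Its correlation was 0.56 with Cck, 0.35 with Nts, 0.30 with Sct and 0.22 with Gip. Reg4 itself differed between the kinds of cell in the anterior samples, with a median of 857 CP10K in cells high for Sct alone, 1.31 CP10K in Cck-high and 0 CP10K in Gip-high cells.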

How the data were processed

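Cells were sequenced by MARS-seq. Per the submitters' processing notes the tools were bcl2fastq, cutadapt 1.18, STAR 2.6.1b, UMI-tools 1.0.0 and R 3.5.1, with the GRCm38 (mm10) build. The values deposited by the authors are log2 expression per gene and cell, 1 table per region, corrected in a way that the sources used here do not give. From the values, each gene followed log2(UMIs / size factor + 1) after a linear correction, and UMIs solved from that relation were whole (within 0.01) for 100.0% of values. Recovery was tested on simulated data. Because the deposited unit is log2, no count model was used. The tables hold genes the authors kept, so totals are those of the kept genes.

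Cells were clustered (scanpy 1.11.5) without the listed hormones, transcription factors and ID proteins, and named from marker lists. Wells were sorted singly and no doublet caller was run. Levels were the mean CP10K of a sample as log2(value + 0.2), tested with limma 3.58.1 (R 4.3.3, empirical Bayes with trend, Benjamini-Hochberg over all genes tested, which were those averaging 0.2 CP10K or more). Shares were tested by exact permutation and pairs by exact sign flips (scipy 1.17.1). Permutation and sign-flip p-values measure the spread between samples of 3 mice, whereas limma also borrows spread from other genes, in the primary fit of enteroendocrine-like cells entirely (infinite prior degrees of freedom). Counting intervals (Wilson, 95%) and the limit for a count of 0 (3 counts) cover counting error only. Positive and hormone-high are defined in the report. Thinning drew 2000 UMIs per cell.

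Sample titles give the same mice in both regions, so mouse numbers pair the samples. Deviations from the region means correlated by 0.24, 0.04 and 0.02 in enteroendocrine-like cells and by 0.69, 0.28 and 0.30 over all cells for mice 1, 2 and 3. The fit without the mouse was the primary one, and the fit with it as a block an alternative. Named genes were the hormones, the 5 most correlated genes of each with a UMI in at least 15 cells (1 of them is not reported here), listed genes passing a test, and for the remaining lists the numbers measured; the genes of other gut hormones, Reg4 and Reg1 were added after their values were seen. The members and lists were chosen with earlier results of these data known. The hormone-high limits, the within-pool expectation, the robust prior, the permutation of levels, the totals without hormones and the omission of each sample's most hormone-rich cell were chosen after seeing the data.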

Additional observations from a re-analysis of the deposited data

How the results depend on the processing

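Over all results and alternatives, 249 kept their direction and side of the threshold or, for counts, stayed within 1.5 times. The tests of shares and pairs could not pass at any setting, so their side of the threshold was fixed. Another 36 reversed, 15 lost and 3 gained a limma call, and 10 counts moved by more than 1.5 times. The cause was not tested, except that leaving out a sample rests on fewer samples.

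For positive shares (anterior minus posterior, percentage points), no alternative passed. The Sct difference in enteroendocrine-like cells was −3.16 with at least 2 UMIs, −3.44 with at least 5, −0.65 after thinning and −8.37 for hormone-high cells. Over all cells the Sct difference was −1.22 with at least 5 UMIs, and that of Nts 0.19 for hormone-high cells. Without 1 sample the differences in enteroendocrine-like cells ranged from −2.87 to 4.04 for Sct and −17.3 to 4.13 for Nts.

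For co-expression (observed minus expected cells), no pair passed after adjustment under any alternative. The smallest p that the sign flips allow was 0.0625 to 0.5 in all cases but 1, so those could not pass. The exception was Nts with Sct in cells chosen by chromogranin, where it was 0.03125. With at least 2 UMIs, Gip with Nts was 0.41, Gip with Sct −0.14 and Nts with Sct 0.77. With at least 5, Gip with Nts was 1.37 and Nts with Sct 1.60. Thinned, Cck with Gip was −2.13 and Cck with Sct −1.39. In cells chosen by at least 5 chromogranin UMIs, Gip with Sct was −0.33. There Nts with Sct was 3.52, above in 6 of 6 samples (exact sign-flip p = 0.03125, adjusted p = 0.125). Cck with Sct was 4.53 there, above in 5 of 5 samples (exact sign-flip p = 0.0625, adjusted p = 0.125). With high in place of positive, over all enteroendocrine-like cells, Cck with Gip was −1.85, Gip with Sct −3.59 and Nts with Sct 2.73. Without 1 sample, Cck with Gip ranged from −0.44 to 3.06, Cck with Sct from −0.33 to 1.21, Gip with Nts from −2.77 to 0.49 and Nts with Sct from −0.71 to 0.48.

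For levels in enteroendocrine-like cells (log2), Cck was −0.10 with a pseudocount of 0.05, −0.38 from summed UMIs and −0.75 in the chromogranin-chosen cells, and Sct was −1.24 and called from summed UMIs. Gip kept 4.46 but lost its call with the robust prior and by exact permutation, and was 3.29 with samples weighted by cells and 4.92 in chromogranin-chosen cells, neither called. Nts kept −3.66 and lost its call with the mouse as replicate block, with the robust prior and by exact permutation, and was 0.69 weighted by cells and −3.06 in chromogranin-chosen cells. Genes called numbered 2 with the block, 2 with the robust prior and 1 in chromogranin-chosen cells. Without 1 sample, Cck ranged from −1.57 to 4.20, Gip from 2.36 to 8.40, Nts from −5.93 to −1.11, and the calls from 1 to 10. The median over all genes was 0.27, against 0.48 with a pseudocount of 0.05 and 0.09 with 1.

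Over all cells, the paired fit with the mouse as replicate block called 17 genes, Gip (3.29) among them, and it changed no other hormone's call there. Without 1 sample, 0 to 1 genes were called and Sct ranged from −0.50 to 0.28. The 4 to 7 enteroendocrine-like cells of mice 2 and 3 per sample limit what any regional share can show.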
